A study of Mus musculus with 9 samples.

Results

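The genes described here are 31 mouse genes of mitosis and chromosome segregation, chosen by name, and their RNA was measured in T cells after pull-down of Argonaute (AGO). A probe set listed for a single gene was found for 30 of the 31, among 18193 genes measured in all, and Ccnb1, cyclin B1, was not analysed here. The 30 genes had 59 probe sets, and each gene is represented by its brightest one. All T cells came from C57BL/6 mice. In allogeneic cultures they were kept with dendritic cells from BALB/c mice. In anti-CD3/CD28 cultures they received antibodies against CD3e and CD28, 0.1 µg/ml of antibody, which signal through the antigen receptor and through co-stimulation in the absence of antigen. In syngeneic cultures they were kept with dendritic cells of their own strain. Every culture lasted 24 h, and both kinds of co-culture held 20 T cells per dendritic cell. For antibody-treated cells the labels mention no dendritic cells. T cells of all 3 cultures were then isolated by magnetic negative selection after incubation with CD11c beads, exposed to UVA light (400 mJ/cm2 as the first dose) and lysed for AGO immunoprecipitation. Each culture gave 3 arrays, numbered 1 to 3 as biological replicates in the labels, which name no animals, ages or separate cultures. Values are log2 array signals, and the p-values measure the spread between these 9 arrays, which may be technical in part.

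Mitosis is driven by cyclins A and B bound to the kinase Cdk1, followed by the Aurora and Polo kinases, which build the spindle and attach chromosomes to it. A checkpoint holds the cell until all chromosomes are attached, and the anaphase-promoting complex then destroys cyclins and securin so that separase can part the sister chromatids. Resting T cells hold little of these transcripts and make them once stimulation has taken them through DNA replication. AGO carries microRNAs and holds the transcripts that they pair with, so the signals here depend on how much of a transcript a cell has and on how much of it AGO holds. Arrays of input RNA were not analysed here, and fewer cells in division and less RNA per cell cannot be told apart.

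Promoters of mitotic genes are known for a short element, the cell cycle genes homology region (TTTGAA, or TTCGAA in some genes), with CCAAT boxes upstream of it. Promoter windows of 300 bases (250 before and 50 after the annotated start, RefSeq, build GRCm38.p6) were matched by symbol for 25 of the 31 genes. TTTGAA, searched on both strands, stood in 17 of the 25 (68.0%), against 20.2% of the 27025 genes with a window. TTCGAA, which reads alike on both strands, stood in 4 (16.0%, against 1.80%). CCAAT on either strand stood in 20 (80%, against 41.1%). CCAAT together with one of the other elements stood in 18 (72%, against 9.65%). No matches of different elements shared bases in these windows. These are matches of letters and not shown sites. The 150 bases before the start are printed for 4 genes with large differences between cultures (Cdk1, Cdc20, Ube2c and Kif11) and for Pttg1, which differed the other way and had no match. Each reads 5′ to 3′ on the strand of its gene, ends at the base before the start, and has matches to the 3 elements, in either orientation, in capitals. They cover chr10:69352913-69353062 (minus strand), chr4:118437344-118437493 (minus), chr2:164769779-164769928 (plus), chr19:37376232-37376381 (plus) and chr11:43425982-43426131 (minus), all directly upstream of the annotated start.
Cdk1: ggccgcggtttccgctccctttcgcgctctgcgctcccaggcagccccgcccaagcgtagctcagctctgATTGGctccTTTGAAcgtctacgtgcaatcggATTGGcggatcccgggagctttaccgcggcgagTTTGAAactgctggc
Cdc20: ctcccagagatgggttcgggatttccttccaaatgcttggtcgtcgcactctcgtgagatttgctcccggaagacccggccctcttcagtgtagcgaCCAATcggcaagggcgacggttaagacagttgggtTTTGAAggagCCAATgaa
Ube2c: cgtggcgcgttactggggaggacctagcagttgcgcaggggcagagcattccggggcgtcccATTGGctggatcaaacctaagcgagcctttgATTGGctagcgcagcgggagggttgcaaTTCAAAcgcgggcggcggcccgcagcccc
Kif11: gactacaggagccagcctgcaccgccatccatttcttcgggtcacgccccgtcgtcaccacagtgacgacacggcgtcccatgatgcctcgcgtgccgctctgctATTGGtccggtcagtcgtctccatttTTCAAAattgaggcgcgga
Pttg1: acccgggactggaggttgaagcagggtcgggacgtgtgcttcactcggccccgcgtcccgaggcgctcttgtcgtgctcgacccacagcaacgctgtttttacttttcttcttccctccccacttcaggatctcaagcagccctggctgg
The TTTGAA match nearest to the start began 15 bases before it in Cdk1 and 18 in Cdc20. On the opposite strand it began 29 bases before the start in Ube2c and 19 in Kif11. The nearest CCAAT match upstream of that element lay at 48 bases in Cdk1, 53 in Cdc20, 57 in Ube2c and 45 in Kif11. Birc5, Melk and Nusap1 had no match either, and these 3 were higher after both kinds of stimulation on the mean of 3 arrays. The allogeneic difference from syngeneic culture was 1.14 for Birc5, against 1.06 for Cdc20 and 1.02 for Kif11. The printed genes are examples, and a link between matches and differences was not tested.

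The arrays carried T cell RNA: all 13 measured genes of a list of 15 T cell markers, among them Cd3e, Cd4 and Cd8a, lay above the array median on all 9 arrays. Array medians over genes were 4.85 to 4.86 in number 1, 6.20 to 6.24 in number 2 and 5.52 to 5.92 in number 3. Replicate number accounted for a median of 92.7% of the variance of a gene and culture for 2.08%. What part the processing has in the share of replicate number was not tested. Some arrays of the same number were close to identical: in number 1, 49.0% of genes had exactly the same value in the allogeneic and anti-CD3/CD28 arrays. Collagen and other stromal genes averaged 7.52, 7.0 and 8.99 in the allogeneic, anti-CD3/CD28 and syngeneic arrays of number 2, against 4.02 to 4.46 on the other 6 arrays. Macrophage and monocyte genes were lower in every stimulated array, with list means of 5.44 to 6.33 in allogeneic, 4.98 to 6.19 in anti-CD3/CD28 and 6.60 to 7.79 in syngeneic arrays. The summed signal of those 15 genes spanned 11.6 to 12.1, 11.4 to 11.6 and 13.2 to 13.6 in the same order (log2), and 8 to 10, 9 to 10 and 4 to 7 of the genes lay at or under the array median. Lyz1, Lyz2 and Ctss lay above it on all 9 arrays, Cd68 and Mpeg1 on 7, Csf1r on 4, Adgre1 on 1 and C1qa on 0. Csf1r stood at 4.37, 5.91 and 6.63 on allogeneic, 4.28, 5.58 and 4.26 on anti-CD3/CD28 and 8.71, 9.99 and 9.21 on syngeneic arrays. Dendritic cell genes averaged 7.49 to 9.24, 7.39 to 7.66 and 7.70 to 9.26, with summed signals of 12.9 to 15.0, 12.6 to 13.8 and 13.4 to 14.9 and 3 to 5, 4 to 5 and 3 to 4 of 16 genes at or under the array median. Of these 16, 11 lay above the array median on all 9 arrays, among them Zbtb46, Ccr7, Ccl17, Ccl22 and the class II genes, while Flt3 did on 2, Itgax on 1 and Xcr1 on 0. On the mean of 3 arrays all 16 were lower in anti-CD3/CD28 arrays, for which the labels mention no dendritic cells, than in syngeneic arrays. Ccl17 stood at 9.80, 7.53 and 5.86 on anti-CD3/CD28 and 9.80, 10.93 and 11.87 on syngeneic arrays. Ccr7 differed less, at 11.17, 10.39 and 12.12 against 11.37, 10.38 and 12.20. B cell genes averaged 5.90 to 7.55, 5.75 to 7.55 and 6.20 to 7.98 in allogeneic, anti-CD3/CD28 and syngeneic arrays. Of these, Cd79a, Cd79b, Ms4a1 and Ighm lay above the array median on all 9 arrays, Ebf1 on 6, Blk on 5, Cd22 on 3 and Pax5 on 2. What part these cells have in the values below was not tested.

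Against that background the mitosis genes followed culture more than most genes did. Culture accounted for a median of 23.2% of the variance of the 30 genes, replicate number for 44.7% and a median of 25.8% lay in differences between cultures that were not the same in each number. For 8 of the 30 culture took the larger share, against 808 of 18193 genes. Culture took 65.8% for Ncapg, 62.1% for Kif11, 59.8% for Kif20a and 57.2% for Cdk1. The median of the 30 genes was 7.05, 6.70 and 8.29 on allogeneic arrays 1, 2 and 3, and 6.92, 7.52 and 7.54 on anti-CD3/CD28 arrays. On syngeneic arrays it was 5.34, 6.47 and 7.31. The syngeneic array was the lowest of its number each time, but syngeneic array 3 stood above allogeneic arrays 1 and 2 and above anti-CD3/CD28 array 1.

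**Figure D1:**
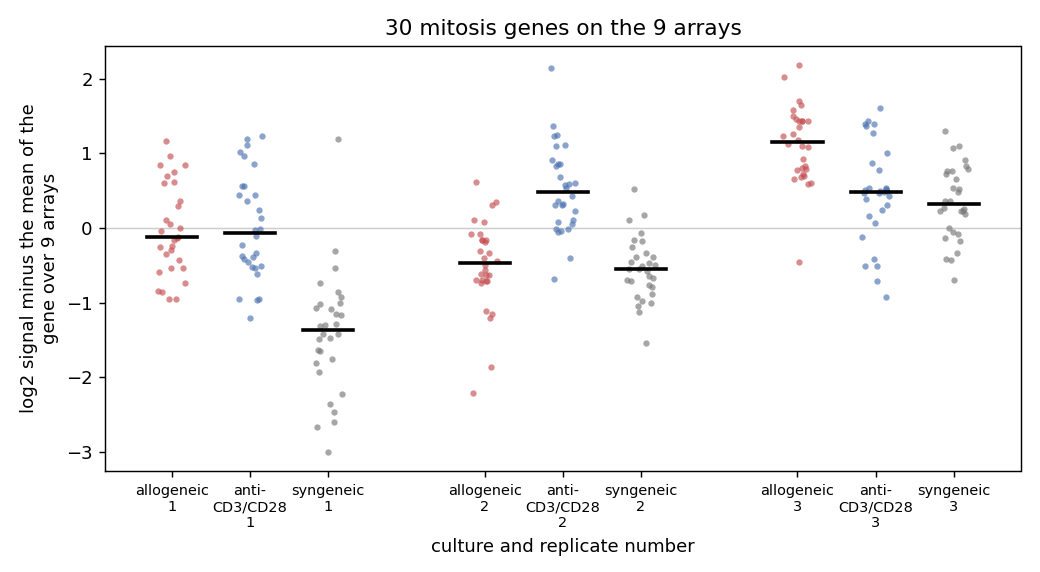
Log2 signal of each of the 30 mitosis genes minus the mean of that gene over the 9 arrays (y axis), by culture and replicate number (x axis). Points are genes and black bars are medians. Syngeneic array 1 lies lowest, allogeneic array 3 highest, and within number 2 the anti-CD3/CD28 array stands apart from the allogeneic and syngeneic ones.

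The comparison of allogeneic with syngeneic culture asks how AGO-bound transcripts differ between T cells facing foreign and own-strain dendritic cells. Of the 30 mitosis genes 28 were higher on the mean of 3 arrays, where 56.2% of all genes were, and the median log2 difference was 0.73, against 0.03 over all genes. None passed the test: limma called 0 of 30 and 0 of 18193 genes (0.00%) at an adjusted p under 0.05, with and without replicate number as a block. Without the block 1 mitosis gene was higher at an unadjusted p under 0.05 (Cdk1), against 0.0330% of all genes, and 0 were lower, against 0.115%. With the block 9 were higher, against 2.33% of all genes, and 1 was lower (Pttg1), against 2.21%. As a random block, number left 0 of the 30 called, and 1 gene of all (0.00550%). In number 1, 29 of the 30 were higher (32.2% of all genes) and 1 lower (35.7%), with a median of 1.17. In number 2, 16 were higher (49.7%), 11 lower (32.4%) and 3 exactly equal, with a median of 0.09. In number 3, 28 were higher (37.7%) and 1 lower (35.9%), with a median of 0.73. In all 3 numbers 16 were higher, against 7.29% of all genes, and 1 was lower, against 7.96%. Groups did not overlap for 1 gene that was higher, Kif11 (0.192% of all genes), and for 0 that were lower (0.451%).

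Anti-CD3/CD28 culture was set against syngeneic culture, from which it differs both in the stimulus and in the dendritic cells, and their parts cannot be told apart. Here 29 of the 30 were higher on the mean, against 48.9% of all genes, with a median log2 difference of 0.98, against 0.00 over all genes. Again limma called 0 of 30 and 0 of 18193 (0.00%) at an adjusted p under 0.05, with and without the block. At an unadjusted p under 0.05 there were 2 higher without the block (Ncapg and Cdk1), against 0.0824% of all genes, and 0 lower, against 0.775%. With the block 9 were higher, against 2.23%, and 1 was lower (Pttg1), against 4.56%. As a random block, number left 0 of the 30 called, and 30 genes of all (0.165%). The order of the numbers was not that of the allogeneic comparison. In numbers 1 and 2, 29 of 30 were higher each time (32.9% and 42.2% of all genes) and 1 lower (32.9% and 28.2%), with medians of 1.24 and 1.20. In number 3, 16 were higher (34.3%) and 14 lower (43.5%), with a median of 0.27. The array median over all genes was 5.52 on anti-CD3/CD28 and 5.83 on syngeneic array 3, and its part in these values was not tested. In all 3 numbers 16 were higher, against 7.80%, and 1 was lower, against 9.15%. Groups did not overlap for 6 genes that were higher, against 0.412%, and for 0 that were lower, against 1.52%. The 6 were Cdk1, Ccna2, Ccnf, Kif11, Kif20a and Ncapg. Both comparisons use the same syngeneic arrays.

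Between the stimulated cultures, allogeneic against anti-CD3/CD28, the sign depended on the replicate number. The median difference of the 30 genes was −0.09 on the mean of 3 arrays, against 0.04 over all genes, and limma called 0 of 30 and 0 of 18193 (0.00%) with and without the block. On the mean 10 were higher (60.1% of all genes) and 20 lower. At an unadjusted p under 0.05 there were 0 higher (0.126%) and 0 lower (0.00550%) without the block, and 1 higher (Pttg1; 0.792%) and 0 lower (0.335%) with it. In number 1 the arrays were alike: the median was −0.03, 12 genes were higher (24.3% of all genes), 16 lower (26.7%) and 2 exactly equal. In number 2, 28 of 30 were lower in allogeneic culture (31.4%) and 2 higher (47.0%), with a median of −0.99. In number 3, 28 of 30 were higher (43.1%) and 2 lower (28.1%), with a median of 0.60. The array median over all genes was 5.92 on allogeneic and 5.52 on anti-CD3/CD28 array 3, while the median difference of all genes was 0.00. What part the array level has in the number 3 values was not tested. List means of several other cell types were higher in that number as well. In allogeneic against anti-CD3/CD28 array 3 they were 5.46 against 4.22 for erythroid and 5.67 against 4.12 for granulocyte genes. For macrophage and dendritic cell genes they were 5.95 against 4.98 and 9.24 against 7.66. Syngeneic array 3 stood at 4.84, 5.57, 7.06 and 9.26 in the same order. B cell genes averaged 6.91 against 7.55, and T cell genes 10.79 against 11.13. Of the 13 T cell genes 1 was higher in the allogeneic array, 9 were lower and 3 exactly equal. Of the 6 erythroid genes 2 were higher in the allogeneic array, 2 lower and 2 exactly equal, with a median difference of 0. Of the 9 granulocyte genes 5 were higher, 2 lower and 2 exactly equal. The 2 higher erythroid genes were Car1, at 9.55 against 5.79, and Klf1, at 8.06 against 3.90. Mpo, of the granulocyte list, stood at 7.35 against 3.85. Of 6 erythroid and 9 granulocyte genes, 4 and 6 did not exceed the median of allogeneic array 3, and 5 and 9 that of anti-CD3/CD28 array 3. Their part in the mitosis values of number 3 was not tested. In all 3 numbers 1 gene was higher (Pttg1; 4.39%) and 1 lower (Espl1; 2.58%). No mitosis gene had groups that did not overlap, against 0.269% of all genes on the higher and 0.0550% on the lower side. The largest difference in each direction was that of Cenpe, −1.30 ± 1.00 (SE), and of Tpx2, 0.64 ± 0.83 (−0.17 without allogeneic array 3), and neither passed (limma, adjusted p = 1.00 without the block and 0.93 with it). Over the 4 probe sets of Tpx2 the difference was 0.05 to 0.64, with a median of 0.11. Values after ± are SE from limma without the block unless stated, and so include the spread between replicate numbers.

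**Figure D2:**
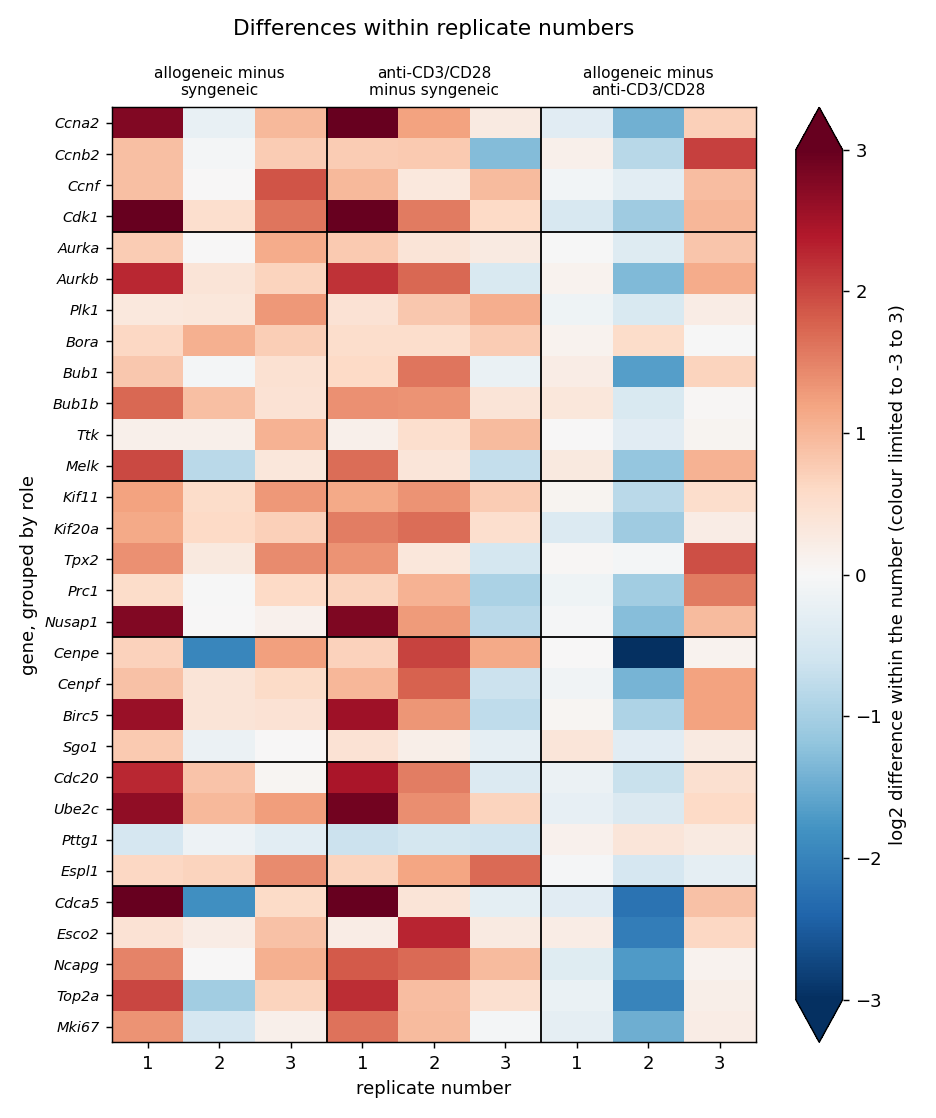
Log2 difference of each mitosis gene (rows, grouped by role) between 2 cultures within replicate numbers 1, 2 and 3 (columns), for the 3 comparisons. Red is higher in the culture named first. Red fills the first column of both comparisons with syngeneic culture, and the last block turns from blue in number 2 to red in number 3.

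Among the cyclins and their kinase, all 4 measured genes were higher on the mean after both stimuli, with median differences of 1.05 (allogeneic) and 1.14 (anti-CD3/CD28). Cdk1, the kinase that starts mitosis, stood at 8.29, 6.91 and 8.97 on allogeneic arrays 1 to 3, 8.78, 7.97 and 7.97 on anti-CD3/CD28 arrays and 5.18, 6.41 and 7.37 on syngeneic arrays. All 3 anti-CD3/CD28 values lay above the syngeneic ones, while allogeneic array 2 lay under syngeneic array 3. The log2 difference was 1.74 ± 0.74 (SE; unadjusted p = 0.0357) in allogeneic and 1.92 ± 0.74 (unadjusted p = 0.0226) in anti-CD3/CD28 culture, or 3.33-fold and 3.78-fold, with adjusted p = 1.00 in limma each time, and 0.71 and 0.73 with the block. Ccna2, cyclin A2, stood at 10.12, 8.06 and 10.44 on allogeneic arrays, 10.45, 9.50 and 9.74 on anti-CD3/CD28 arrays and 7.34, 8.29 and 9.46 on syngeneic arrays. It was the same kind of picture, with allogeneic array 2 low: within number 2 the allogeneic value was 0.23 under the syngeneic one (−0.23), and the anti-CD3/CD28 value 1.21 above it. The differences were 1.18 ± 0.71 and 1.53 ± 0.71. The other of its 2 probe sets differed from syngeneic culture by 0.96 in allogeneic and 0.62 in anti-CD3/CD28 culture. Ccnb2, cyclin B2, was 0.76 higher in allogeneic array 3 than in syngeneic array 3, while its anti-CD3/CD28 difference in that number was −1.29. Ccnf, the substrate-binding F-box protein of an SCF ubiquitin ligase, had exactly equal allogeneic and syngeneic values in number 2.

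The 8 mitotic kinases, their activator and the checkpoint genes were all higher on the mean after both stimuli, with median differences of 0.64 and 0.63. Aurkb, the kinase of the chromosomal passenger complex, stood at 8.22, 6.76 and 7.87 on allogeneic arrays, 8.12, 8.09 and 6.76 on anti-CD3/CD28 arrays and 5.95, 6.37 and 7.21 on syngeneic arrays. In each stimulated culture 1 array lay low, number 2 in allogeneic and number 3 in anti-CD3/CD28 culture. The differences were 1.11 ± 0.68 and 1.14 ± 0.68. Bub1b (BubR1), which holds the checkpoint on, stood at 6.71, 6.87 and 7.68 on allogeneic arrays, 6.38, 7.33 and 7.63 on anti-CD3/CD28 arrays and 5.00, 5.97 and 7.25 on syngeneic arrays. It was higher in all 3 numbers in both comparisons, with differences of 1.02 ± 0.71 and 1.04 ± 0.71. With the block the SE was 0.29, with unadjusted p = 0.0149 and 0.0134 in limma and adjusted p = 0.71 each time. Bora, which activates Plk1 through Aurora A, had smaller but more even differences: 0.63, 1.08 and 0.74 within the numbers in allogeneic culture and 0.53, 0.53 and 0.75 in anti-CD3/CD28 culture. With the block its unadjusted p was 0.00139 and 0.00548 in limma, and its adjusted p 0.71 and 0.68. Ttk (Mps1), which starts the checkpoint at kinetochores, was higher in all 3 numbers in both comparisons as well, and its signal did not exceed the array median on 6 of the 9 arrays.

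Spindle motors and microtubule proteins, 5 genes, were higher on the mean after both stimuli, with median differences of 0.97 and 1.09. Kif11 (Eg5), the motor that pushes spindle poles apart, stood at 7.91, 8.17 and 8.46 on allogeneic arrays, 7.84, 8.97 and 7.93 on anti-CD3/CD28 arrays and 6.71, 7.62 and 7.16 on syngeneic arrays. It was the gene whose stimulated arrays all lay above all syngeneic ones in both comparisons. The differences were 1.02 ± 0.58 and 1.09 ± 0.58, or 2.03-fold and 2.12-fold, with unadjusted p = 0.105 and 0.0865 in limma, and 0.00996 and 0.00766 with the block. Kif20a (MKlp2), which carries the passenger complex to the midzone, stood at 8.12, 8.11 and 9.0 on allogeneic arrays, 8.52, 9.19 and 8.78 on anti-CD3/CD28 arrays and 6.99, 7.52 and 8.28 on syngeneic arrays. Anti-CD3/CD28 arrays did not overlap with syngeneic ones, and allogeneic arrays 1 and 2 lay under syngeneic array 3. The differences were 0.81 ± 0.58 and 1.23 ± 0.58. With the block the SE was 0.29, with unadjusted p = 0.0351 and 0.00702 in limma and adjusted p = 0.71 and 0.68. Tpx2, Prc1 and Nusap1, a spindle assembly factor, a midzone crosslinker and a microtubule-binding protein, were lower in anti-CD3/CD28 than in syngeneic array 3, with differences of −0.53, −0.96 and −0.82. In that number their allogeneic differences were 1.41, 0.60 and 0.14. Of the 4 probe sets of Tpx2, 2 were higher than in syngeneic culture on the mean in each comparison, with medians over the 4 of 0.05 (allogeneic) and −0.06 (anti-CD3/CD28).

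**Figure D3:**
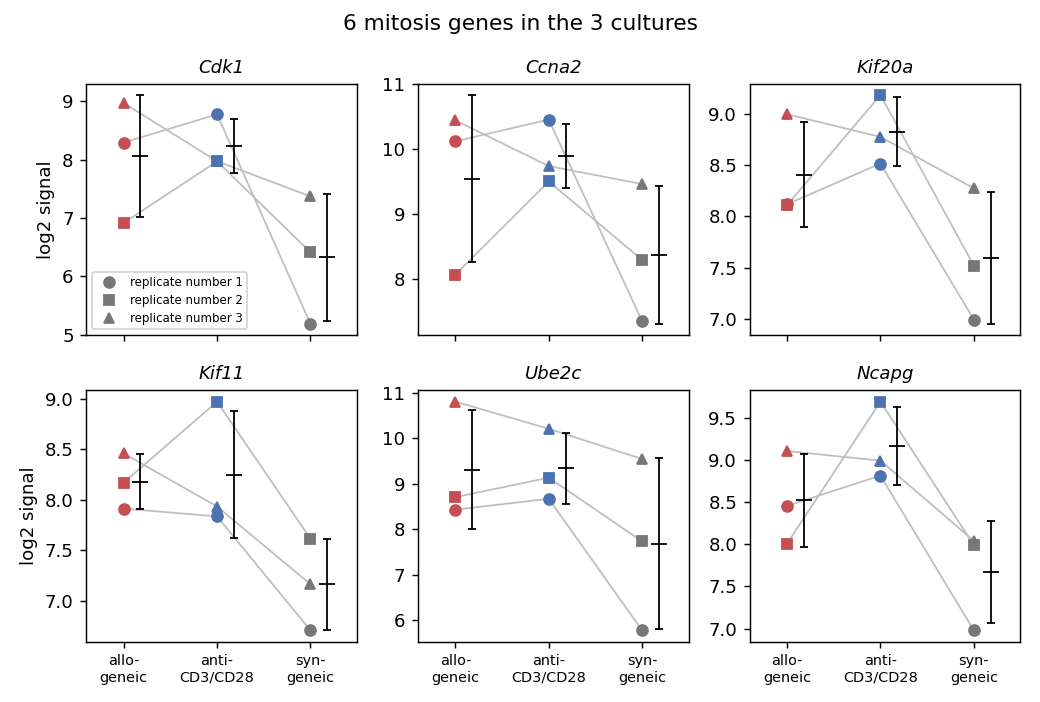
Log2 signal (y axis) of the 6 mitosis genes with the smallest unadjusted p in any comparison, in allogeneic, anti-CD3/CD28 and syngeneic culture. Symbols are replicate numbers, grey lines join arrays of the same number, and black bars are the mean ± SD of 3 arrays. Stimulated arrays lie above the syngeneic array of their number for all 6 genes, except Ccna2 in allogeneic array 2.

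Among the 4 centromere and passenger genes the median differences were 0.41 and 0.87. Birc5 (survivin), a passenger protein that also restrains cell death, stood at 9.13, 7.35 and 8.65 on allogeneic arrays, 9.08, 8.29 and 7.45 on anti-CD3/CD28 arrays and 6.54, 6.96 and 8.22 on syngeneic arrays. Its differences were 1.14 ± 0.71 and 1.03 ± 0.71, with 2.59, 0.40 and 0.43 within the numbers in allogeneic and 2.54, 1.33 and −0.77 in anti-CD3/CD28 culture. Cenpe, the kinetochore motor that moves chromosomes to the spindle equator, stood at 5.37, 4.47 and 7.82 on allogeneic arrays, 5.37, 8.47 and 7.72 on anti-CD3/CD28 arrays and 4.68, 6.43 and 6.59 on syngeneic arrays. Allogeneic array 2 was the lowest of the 9, 4.00 under the anti-CD3/CD28 array of the same number (−4.00). Its differences from syngeneic culture were −0.02 ± 1.00 and 1.28 ± 1.00. Without the number 2 arrays the allogeneic difference was 0.96. Over its 2 probe sets the mean difference from syngeneic culture was −0.02 and 0.41 in allogeneic culture and 1.28 and 0.79 in anti-CD3/CD28 culture.

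Genes of the anaphase-promoting complex and of separase divided in direction. Ube2c, the ubiquitin-conjugating enzyme of that complex, stood at 8.43, 8.70 and 10.80 on allogeneic arrays, 8.67, 9.13 and 10.21 on anti-CD3/CD28 arrays and 5.78, 7.73 and 9.54 on syngeneic arrays. Each stimulated array lay above the syngeneic array of its number, number 3 was the highest in every culture, and the groups overlapped. The differences were 1.63 ± 0.91 and 1.65 ± 0.91, or 3.09-fold and 3.14-fold. With the block the SE was 0.46, with unadjusted p = 0.0142 and 0.0134 in limma and adjusted p = 0.71 each time. Espl1, separase itself, stood at 6.01, 6.64 and 7.63 on allogeneic arrays, 6.04, 7.15 and 7.91 on anti-CD3/CD28 arrays and 5.38, 5.97 and 6.21 on syngeneic arrays. It was higher in all 3 numbers in both comparisons, most of all in number 3 (1.42 and 1.70), and differed by 0.90 ± 0.69 and 1.18 ± 0.69. With the block the SE was 0.23, with unadjusted p = 0.00887 and 0.00274 in limma and adjusted p = 0.71 and 0.68. Cdc20, the activator of the complex, differed from syngeneic culture by 2.27, 0.85 and 0.06 within the numbers in allogeneic culture and by 2.45, 1.53 and −0.41 in anti-CD3/CD28 culture.

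Pttg1, securin, the inhibitor of separase, was lower in all 3 numbers in both comparisons, the one mitosis gene of which this held, and is singled out here after its values were seen. It stood at 12.87, 11.87 and 11.73 on allogeneic arrays, 12.73, 11.50 and 11.47 on anti-CD3/CD28 arrays and 13.37, 12.02 and 12.04 on syngeneic arrays. Within the numbers the differences were −0.50, −0.15 and −0.31 in allogeneic culture and −0.64, −0.52 and −0.57 in anti-CD3/CD28 culture. The mean differences were −0.32 ± 0.46 and −0.58 ± 0.46 in limma without the block. With the block they were −0.32 ± 0.08 and −0.58 ± 0.08, with unadjusted p = 0.00723 and 0.000468, and adjusted p = 0.71 and 0.68. All 3 of its probe sets were lower on the mean in both comparisons with syngeneic culture. Those other than the brightest differed by −0.21 and −0.08 in allogeneic culture and by −0.66 and −0.11 in anti-CD3/CD28 culture. The brightest one carries the suffix that marks probes matching more than 1 transcript (_s_at), so related sequences may share its signal. The same holds for the brightest probe sets of Aurkb, Bub1b and Prc1, which were higher on the mean. That of Cdc20, also higher, carries the suffix _x_at, and other sequences may share its signal too.

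The 5 genes of cohesion, condensation and chromatin were all higher on the mean, with median differences of 0.54 and 1.17. Ncapg, a condensin subunit, stood at 8.46, 8.01 and 9.11 on allogeneic arrays, 8.82, 9.70 and 9.0 on anti-CD3/CD28 arrays and 6.98, 7.99 and 8.04 on syngeneic arrays. Anti-CD3/CD28 arrays lay above all syngeneic ones, and allogeneic array 2 was level with its syngeneic array. The differences were 0.85 ± 0.58 (1.81-fold; unadjusted p = 0.162 in limma) and 1.5 ± 0.58 (2.83-fold; unadjusted p = 0.0221), and between the stimulated cultures −0.64 ± 0.58. The other of its 2 probe sets differed from syngeneic culture by 0.03 in allogeneic and 0.59 in anti-CD3/CD28 culture. Mki67, the gene of the proliferation marker Ki-67, stood at 10.40, 8.96 and 10.80 on allogeneic arrays, 10.67, 10.41 and 10.57 on anti-CD3/CD28 arrays and 9.04, 9.47 and 10.64 on syngeneic arrays. The SD of the 3 arrays was 0.97 in allogeneic, 0.13 in anti-CD3/CD28 and 0.83 in syngeneic culture, and in number 3 all 3 cultures were close. The differences were 0.34 ± 0.56 and 0.83 ± 0.56. Cdca5 (sororin), which protects sister chromatid cohesion, had the widest swing of this group: 3.08, −1.83 and 0.57 within the numbers in allogeneic culture and 3.43, 0.38 and −0.30 in anti-CD3/CD28 culture. Top2a, the topoisomerase that untangles sister DNA, was 1.04 lower in allogeneic than in syngeneic array 2 (−1.04) and 2.01 higher in number 1.

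A further 84 mitosis genes, from a list of kinetochore, condensin, motor and regulatory genes that holds none of the 31, had smaller medians on the mean of 3 arrays against syngeneic culture. In allogeneic against syngeneic culture 71 of 84 were higher on the mean (56.2% of all genes) and the median was 0.40, with 0.43, 0.06 and 0.34 within the numbers. In anti-CD3/CD28 against syngeneic culture 72 were higher (48.9%) and the median was 0.38, with 0.36, 0.50 and 0.00. Between the stimulated cultures 40 were higher (60.1%), with medians of 0.00, −0.35 and 0.35. The test called 0 of the 84 in each comparison, with and without the block. With the block 13 and 15 were higher than in syngeneic culture at an unadjusted p under 0.05 (2.33% and 2.23% of all genes). The kinetochore genes Spc24 and Nuf2 differed from syngeneic culture by 1.49 ± 0.71 and 1.27 ± 0.68 in allogeneic arrays and by 1.27 ± 0.71 and 1.28 ± 0.68 in anti-CD3/CD28 arrays. Cks1b, a small protein that binds Cdk1, differed by 1.00 ± 0.49 and 0.94 ± 0.49. Aspm, a spindle pole protein, differed by 1.59 ± 0.89 in anti-CD3/CD28 arrays.

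**Figure D4:**
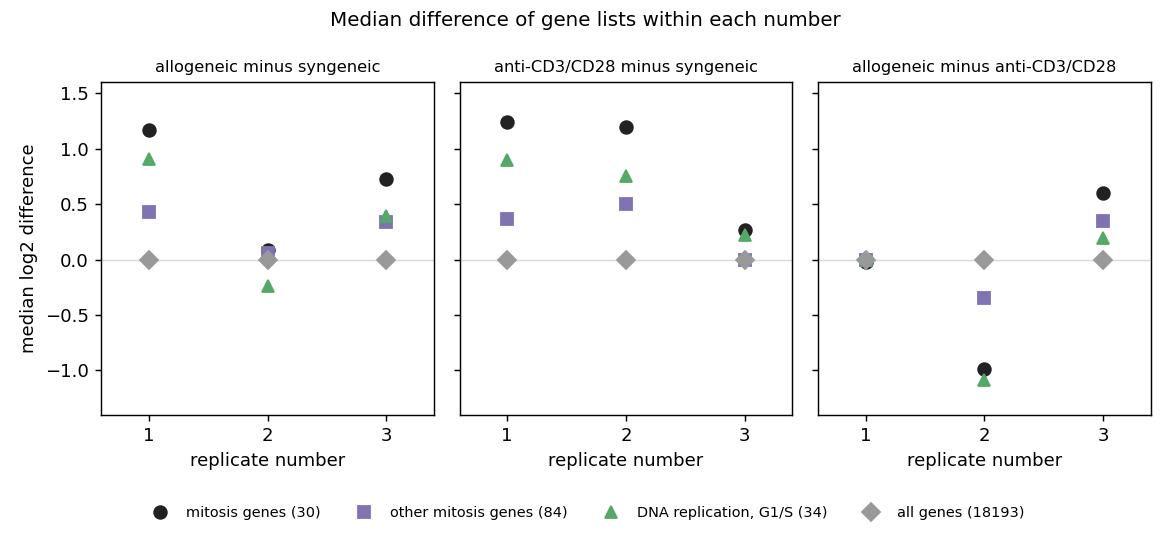
Median log2 difference (y axis) within each replicate number (x axis) of the 30 mitosis genes, 84 other mitosis genes, 34 genes of DNA replication and G1/S and all 18193 genes, for the 3 comparisons. The 30 mitosis genes stand at 1.17, 0.09 and 0.73 (left), 1.24, 1.20 and 0.27 (middle) and −0.03, −0.99 and 0.60 (right), while all genes stay at 0.

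The sizes rest on which probe set and which arrays are used. With the mean of all probe sets of a gene the median differences from syngeneic culture were 0.50 (allogeneic) and 0.58 (anti-CD3/CD28), and of the 59 probe sets 49 and 50 were higher on the mean. Without syngeneic array 1 the medians were 0.37 and 0.50, without allogeneic array 3 the allogeneic median was 0.26, and without all number 1 arrays they were 0.50 and 0.64.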

How the data were processed

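RNA recovered with AGO from mouse T cells was hybridised to 1 expression array per sample, 9 in all. The deposited values are log2 signals per probe set, made by the authors with RMA per the submitters' processing notes. The sources used here do not state the program, its version, or whether all arrays were normalized together. They were used as deposited.

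Of 45101 probe sets, 34945 were listed for 1 gene in the platform annotation, 932 for several and 9160 for none, and 64 were controls. Symbols of 34741 were updated by gene ID. Each of 18193 genes took its probe set with the highest mean. limma 3.58.1 (R 4.3.3) tested the differences (1 mean per culture, all 9 arrays, intensity trend), adjusted by Benjamini-Hochberg over all genes, at a threshold of 0.05. The test was checked on simulated data. That check asked for calls only of the largest simulated differences, and only with the block. It does not show whether differences of the sizes seen here would be called. The number of arrays limits the precision.

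Arrays were taken as paired by replicate number: deviations from the group means correlated at 0.81 to 0.92 in the 9 pairs that share a number and at −0.60 to −0.17 in the 18 others, where centring itself lowers them. The test with number as a block is therefore given beside the test without it. Shared cells and shared processing of a number cannot be told apart here. With the block the SE was 0.66 for Cdk1, 0.68 for Ccna2 and Birc5, and 0.62 for Aurkb. It was 0.26 for Kif11, 0.38 for Ncapg, 0.45 for Mki67 and 0.86 for Cenpe. Alternatives covered the block, scaling, a filter on dim genes, the variance prior, probe sets and arrays left out. The members and lists were chosen with earlier results of these data known. Genes given with their values on every array are the 6 with the smallest p without the block in any comparison and up to 2 per role by the same p. Pttg1 was added after its values were seen, and other members appear as single values. Genes named from the 84 are among the 4 with the smallest p. Motifs were searched in RefSeq promoter windows by exact match.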

Additional observations from a re-analysis of the deposited data

How the results depend on the processing

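No mitosis gene was called in any comparison under any of the 23 alternatives, and the median differences from syngeneic culture stayed positive in all 16 in which they were recomputed. Some of the 16 could not change a median. These were the filter on dim genes, which kept all 30, and leaving out 1 array of the culture that is not in the comparison. Leaving out 1 array gave medians of 0.26 to 1.06 (allogeneic), 0.50 to 1.29 (anti-CD3/CD28) and −0.60 to 0.23 (allogeneic against anti-CD3/CD28). The last turned to 0.012 without allogeneic array 1 or anti-CD3/CD28 array 2, 0.23 without allogeneic array 2 and 0.26 without the number 2 arrays. Replicate number as a fixed block changed no call (0 genes, lowest adjusted p of the 30 0.709, 0.677 and 0.928 in limma). As a random block it called 1 and 30 genes of all against syngeneic culture, none of them among the 30. Centring arrays on their medians called 1 gene in each and moved the median of all genes to 0.11 for anti-CD3/CD28 against syngeneic and −0.11 for allogeneic against anti-CD3/CD28. The mitosis medians were then 1.09 and −0.24.

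Counts of mitosis genes without overlap are given with the share of all genes in the same setting. For allogeneic and syngeneic arrays they were 5 under quantile normalization (2.41%), 0 with the mean of probe sets (0.561%), and 4, 9 and 12 without numbers 1, 2 and 3 (7.37%, 5.32% and 6.89%), against 1 as reported (0.643%). For anti-CD3/CD28 and syngeneic arrays they were 10 under quantile normalization (4.17%), and 12 and 21 without numbers 1 and 3 (12.1% and 8.38%), against 6 (1.93%). For the stimulated cultures they were 1, 1 and 7 without numbers 1, 2 and 3 (8.05%, 3.45% and 3.23%), against 0 (0.324%). Leaving out 1 array gave 1 (0.643% to 4.88%) to 12 (2.62%), 6 (1.93% to 7.82%) to 20 (5.61%), and 0 (0.324% to 5.33%) to 6 (2.46%).

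Over all 30 genes, 34 of 690 values under the alternatives turned in sign for allogeneic against syngeneic culture (11 genes), 23 of 690 for anti-CD3/CD28 against syngeneic culture (6 genes) and 119 of 690 between stimulated cultures (27 genes). The 690 include values that could not turn, so these are not rates of change. The block, the filter, the variance prior and leaving out an array of the third culture do not alter a difference. With a number left out, the fits with and without the block give the same difference, so such turns count again. Turns were 7 for Ccnb2 and 4 for Prc1 (anti-CD3/CD28 against syngeneic), and 4 each for Cdca5 and Top2a (allogeneic against syngeneic). For Tpx2 between stimulated cultures they were 3: −0.011 without number 3, with or without the block, and −0.17 to 1.13 without 1 array. For Cenpe the allogeneic difference from syngeneic culture was 0.10 under quantile normalization, 0.20 with the mean of probe sets, 0.96 without number 2 with or without the block, and −0.98 to 0.69 without 1 array. Its difference between stimulated cultures was 0.049 without number 2, with or without the block. For Mki67 the allogeneic difference from syngeneic culture was −0.18 without number 1, with or without the block, and −0.040 to 0.88 without 1 array (−0.0031 without syngeneic array 1). For Pttg1 that difference was −0.68 to 0.13 without 1 array, and −0.10 to 0.67 between stimulated cultures. The cause was not tested.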

Other observations

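The 34 measured genes of DNA replication and the G1/S step, of 35 listed, stood higher than in syngeneic culture as well: 32 of 34 on the mean in allogeneic culture (56.2% of all genes), with a median of 0.46, and 31 in anti-CD3/CD28 culture (48.9%), with a median of 0.79. Within the numbers the medians were 0.91, −0.24 and 0.39 in allogeneic and 0.90, 0.75 and 0.22 in anti-CD3/CD28 culture. In number 2, 10 of the 34 were higher and 21 lower in allogeneic than in syngeneic culture, while 16 of the 30 mitosis genes were higher and 11 lower there. In all 3 numbers 8 of the 34 were higher in allogeneic culture (7.29% of all genes) and 24 in anti-CD3/CD28 culture (7.80%). Tk1, thymidine kinase, differed from syngeneic culture by 1.82 ± 0.88 (SE) in allogeneic and 1.71 ± 0.88 in anti-CD3/CD28 culture. Rrm1, a subunit of ribonucleotide reductase, differed by 1.24 ± 0.53 in anti-CD3/CD28 culture. None was called (limma, adjusted p = 1.00 without the block). TTTGAA stood in 6 of 29 promoter windows of these genes (20.7%), against 17 of 25 for the mitosis genes, 37 of 67 for the further mitosis genes (55.2%) and 20.2% of all genes. CCAAT stood in 19 of the 29 (65.5%).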
